A study of Mus musculus with 15 samples.

Results

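Potassium channel genes were described here in FACS-purified mouse islet alpha, beta and delta cells. Members were the rows of the expression table whose symbol begins with Kcn followed by a family letter and a number, except Kcnj11, the pore of the ATP-sensitive potassium channel. The rule took 93 rows (92 symbols, since Kcnb2 has 2 rows) of the 38283 in the table. Of these, 41 had a mean above 1 FPKM (sequenced fragments scaled to transcript length and to the mapped reads of the library) in at least 1 cell type and 52 did not. Every mouse was on the C57BL/6 strain. Alpha cells (n = 5) came from Glu-Venus mice, in which the proglucagon promoter drives the yellow fluorescent protein Venus. The beta cells (n = 4) were Venus-negative cells of the same line, gated by their large scatter and autofluorescence and not by a reporter of their own. Delta cells (n = 6) were the EYFP-positive cells of Sst-CreXROSA26EYFP/EYFP mice, in which Cre under the somatostatin promoter switches on EYFP. A sample was a pool of cells from 2 to 5 mice by the paper's methods, and from 2 to 6 by a legend to its sequencing values. The p-values thus measure the spread between pools, and age and sex are not given in the sources used here. Delta cells thus came from a second mouse line, and the effects of line and of cell type cannot be told apart.

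Potassium channels let potassium leave the cell, which holds the membrane potential negative and ends action potentials. In islet cells this electrical activity gates calcium entry and with it the release of glucagon, insulin and somatostatin. Two-pore-domain channels carry background current, inward rectifiers conduct best near the resting potential and can be opened by G proteins, and voltage-gated channels open on depolarisation. Calcium-activated channels open as cytosolic calcium rises, while modifier and auxiliary subunits form no channel alone and change the gating or traffic of pores they join.

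Pore-forming subunits share a short signature in the loop that selects potassium, and it is shown here because it separates the pore-forming members from the auxiliary ones by sequence. The coding sequences of GENCODE M21 (build GRCm38) were searched in frame, on the coding strand, for ACNNNNGGN followed by TAN or TTN and then GGN, and for a variant that begins with AGN or TCN in place of ACN. The first form was found in 65 of 76 pore-forming members with a coding sequence, and the other 11 held only the variant. Neither form was found in the 16 auxiliary members. Of 21747 coding sequences, 1.278% held the first form and 2.405% the variant. A match is a description of the letters only. The stretches below are from pores of each role that the results turn on, and from Kcnma1, the calcium-activated pore with the highest mean in beta and delta cells. Each is 30 bases long, written 5′ to 3′ on the coding strand, and capitals mark the GGN, TAN or TTN, and GGN codons of the match.
Kcnk3, second pore domain, exon 2 of 2, chr5:30622196-30622225 (plus strand): ctcaccaccatcGGCTTCGGCgactatgtg
Kcnj3, exon 1 of 3, chr2:55437621-55437650 (plus strand): gaggccaccatcGGCTATGGCtaccgctac
Kcna5, exon 1 of 1, chr6:126533736-126533765 (minus strand): atgaccactgtaGGCTACGGGgacatgagg
Kcnc2, exon 3 of 5, chr10:112456223-112456252 (plus strand): atgactaccttaGGTTACGGGgatatgtac
Kcng3, exon 2 of 2, chr17:83587905-83587934 (minus strand): atgactacagttGGCTATGGAgatatgtat
Kcnh2, exon 7 of 15, chr5:24325546-24325575 (minus strand): ctcaccagcgtgGGCTTTGGCaatgtctct
Kcnh6, exon 6 of 13, chr11:106019070-106019099 (plus strand): ctcactagtgtgGGCTTCGGCaatgtgtca
Kcnma1, exon 8 of 30, chr14:23528404-23528433 (minus strand): atgtctacagtgGGTTATGGGgacgtttat

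Among the 5 two-pore-domain members above 1 FPKM, 4 held the first form at 2 places of the coding sequence and Kcnk1 at 1. The variant alone was found in Kcnh1, Kcnh2, Kcnh6, Kcnh7, Kcnh8, Kcnn2 and Kcnn3, so it was a feature of the ether-a-go-go and small-conductance families among the members above 1 FPKM.

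Samples were first compared with their labels. The summed FPKM of 5 alpha cell markers led by Gcg was 194900 to 363700 in alpha samples, against at most 3005 elsewhere. For 5 beta cell markers led by Ins2 it was 118200 to 776300 in beta samples and at most 12690 elsewhere, and for 3 delta cell markers led by Sst 102600 to 267800 in delta samples and at most 3345 elsewhere. Markers of other cell types were also measured. Ppy, the hormone of pancreatic polypeptide cells, was at 17730 to 41390 FPKM in alpha, 16.95 to 98.1 in beta and 10860 to 48600 in delta samples, where RNA of such cells and Ppy made by the sorted cells cannot be told apart. The summed FPKM of 5 acinar markers was 0.122 to 58.6 in alpha, 0.0283 to 10.1 in beta and 2.26 to 455 in delta samples, with all 5 above a mean of 1 FPKM in alpha and delta cells and 1 of 5 in beta cells. Lists for duct (4 genes), endothelial (4), pericyte and stellate (5), immune (4) and Schwann cells (4) summed to at most 4.27, 0.997, 4.94, 2.03 and 9.21 FPKM in any sample. Some of these markers were highest in delta cells, among them Sox9 (mean 1.29 FPKM, against 0.00229 in alpha and 0.00844 in beta cells), Muc1 (0.950 against 0.0528 and 0.138) and Cftr (0.271 against 0 in both), and the endothelial sum had a median of 0.608 in delta, 0 in alpha and 0.0225 FPKM in beta cells. Krt19 was highest in alpha cells (1.97 against 0.276 in beta and 0 in delta cells), and the duct sum had medians of 2.28 in alpha, 0.274 in beta and 2.18 FPKM in delta cells. The pericyte and stellate, immune and Schwann cell sums had their highest medians in alpha cells (2.995, 0.615 and 4.955 FPKM), with 0.642, 0.0638 and 1.99 in beta and 0.569, 0.491 and 3.74 in delta cells. Ribosomal protein transcripts set 6 samples apart: their 81 genes summed to 65329 to 140065 FPKM in the alpha samples numbered 1, 2 and 3, the delta samples numbered 1 and 2 and beta sample 2, against 7871 to 38603 FPKM in the other 9. Single-read steps implied 7.33 M to 30.5 M reads in the 6 samples where they could be resolved, and the depth of the other 9 is unknown. In bulk RNA, fewer cells of a type and less RNA per cell cannot be told apart.

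Of the 41 members above the threshold, 33 passed 1 FPKM in delta cells, 24 in alpha and 19 in beta, and 11 passed it in each of the types. Over all 14405 genes tested the shares above 1 FPKM were 89% in delta, 83.9% in alpha and 79.2% in beta cells, the same order. Delta samples also listed more genes of any kind above 0 (median 18198.5, against 15627 in alpha and 16679.5 in beta samples), and the part of this in the counts of members was not tested. The highest mean was in delta cells for 20 members, in beta cells for 11 and in alpha cells for 10, and the shares over all genes were not computed. Differences were tested with limma on log2(FPKM + 1) in 1 fit of all 15 samples, with Benjamini-Hochberg adjustment over 14405 genes, and a gene was called at an adjusted p under 0.05. Fold changes on this scale understate those of low genes, and a member that is high in 1 cell type only had to be high there to be tested, so the counts of members describe them and support nothing more. The same holds for the p-values of called members that passed 1 FPKM in 1 cell type alone. These were Kcnip3 in alpha cells, Kcnj12, Kcng3 and Kcna2 in beta cells, and Kcnj4, Kcnj13, Kcnc2, Kcnd2, Kcnh7 and Kcnh8 in delta cells.

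In beta against alpha cells, 4 members were called higher, where 2.84% of all genes tested were, and 8 lower, where 4.82% were. These became 9 higher and 9 lower with median-ratio size factors and 8 and 11 with quantile normalization. The 8 lower became 4 without beta sample 1 or in the fit of the 2 types alone, and 5 without beta sample 3 or 4. They became 12 in the 9 samples with low ribosomal protein FPKM. Calls over all genes moved as well, from 1104 (409 higher) to 2072 (1091) with size factors and 1970 (937) with quantile normalization. All-gene calls were 696 (340 higher) without beta sample 1, 1088 (654) without beta sample 3 and 651 (244) without beta sample 4. In the fit of the 2 types they were 520 (221 higher), and in the 9 samples 1373 (200). In delta against alpha cells, 9 were called higher (5.33% of all genes) and 3 lower (1.48%), or 5 and 5 in the 9 samples with low ribosomal protein FPKM. Over all genes, 981 calls (768 higher) became 629 (426 higher) in those samples. In delta against beta cells, 16 were called higher (11.7%) and 4 lower (2.99%), or 13 and 6 with size factors and 12 and 6 with quantile normalization. The 16 became 20 with a pseudocount of 0.1 or in the fit of the 2 types alone. Over all genes, 2114 calls (1683 higher) became 2676 (1379) with size factors and 2745 (1397) with quantile normalization. They became 2292 (1862 higher) with the pseudocount of 0.1 and 2433 (2022) with the 2 types alone. In either direction the fit of all 15 samples called 12, 12 and 20 of the 41 members in the 3 comparisons, beside 7.66%, 6.81% and 14.7% of all genes. The groups did not overlap for 15, 12 and 25 members in these comparisons, of which 10, 10 and 19 were also called; over all genes tested they did not overlap for 8.12%, 6.64% and 14.9%. The median log2 difference of the 41 members was -0.26, 0.56 and 0.81, and over all genes tested it was -0.13, 0.13 and 0.30. Called in at least 1 comparison were 25 members, a count for which the share of all genes was not computed. The F-test over the cell types called 21 members, beside 16% of all genes.

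**Figure D1:**
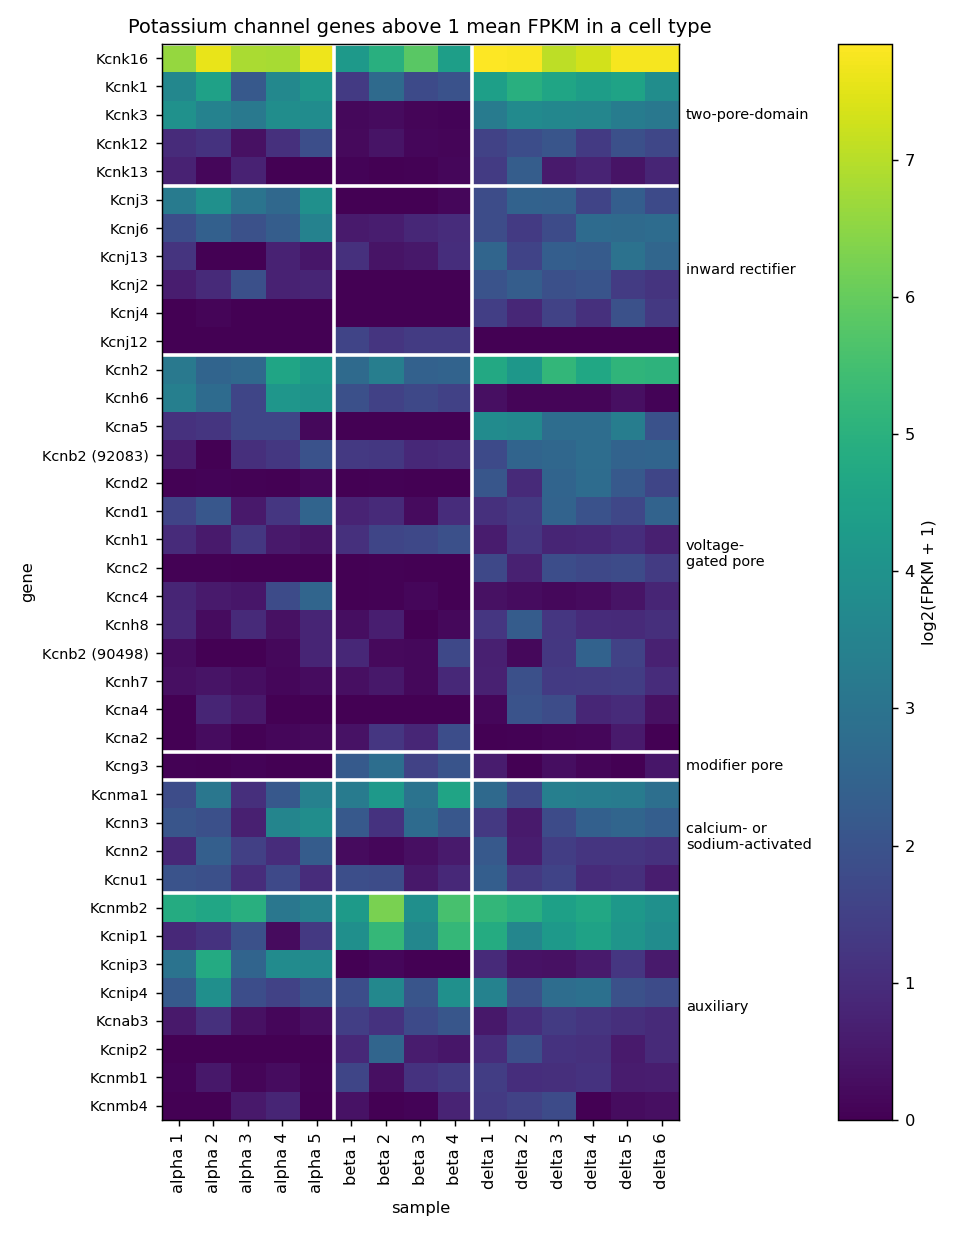
Levels of 38 potassium channel rows above 1 mean FPKM in a cell type, as log2(FPKM + 1) in colour, with genes in rows by role and the 15 samples in columns; the 2 Kcnb2 rows carry the last digits of their identifiers. Kcnk16 is the brightest row in alpha and delta cells, while Kcnk3, Kcnj3 and Kcna5 are dark in every beta sample.

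Two-pore-domain genes carried most of the pore-forming transcript in alpha and delta cells. They made up 61.4 to 79.4% of the summed FPKM of pore-forming members in alpha samples, 60.4 to 78.9% in delta samples and 27.5 to 63.15% in beta samples, where Kcnk16 still led in 3 of 4. Of 14 members, 5 were above 1 FPKM. In beta against alpha cells, 3 of the 5 were called lower and none higher, beside 4.82% and 2.84% of all genes tested. In delta against beta cells 4 were called higher and none lower, beside 11.7% and 2.99% of all genes. None of the 5 was called between delta and alpha cells, and Kcnk13 was called in no comparison in the fit of all 15 samples.

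Kcnk16 encodes an alkaline-activated background channel known for its expression in the pancreas. Its level was 97.1, 189, 114, 112 and 200.0 FPKM in alpha samples 1 to 5. In beta samples 1 to 4 it was 17.4, 29.65, 55.7 and 20.05 FPKM, and the delta samples ranged from 134 through a median of 212 to 229 FPKM. Every beta sample lay below every alpha and delta sample, while alpha and delta samples overlapped. The means were 142 ± 48.4 in alpha, 30.7 ± 17.5 in beta and 195 ± 38.8 FPKM in delta cells (SD). On the log2 scale the difference was -2.26 (SE 0.41, adjusted p = 0.00226, limma) for beta against alpha and 2.74 (SE 0.39, adjusted p = 0.000182) for delta against beta cells. Kcnk16 was the highest pore-forming member in 14 of 15 samples, the exception being beta sample 4, where Kcnma1 led. It made up 49.8 to 71.3% of the summed pore-forming FPKM in alpha, 23.7 to 60.3% in beta and 46.8 to 65.4% in delta samples.

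That sum was 159 to 347 FPKM in alpha, 64.7 to 92.4 in beta and 286 to 358 in delta samples, so beta cells lay below both other types. Without Kcnk16 the sum was 45.75 to 147 in alpha, 36.7 to 64.5 in beta and 120.0 to 152 FPKM in delta samples. The alpha and beta ranges then overlapped, and the delta samples stayed above all beta samples.

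**Figure D2:**
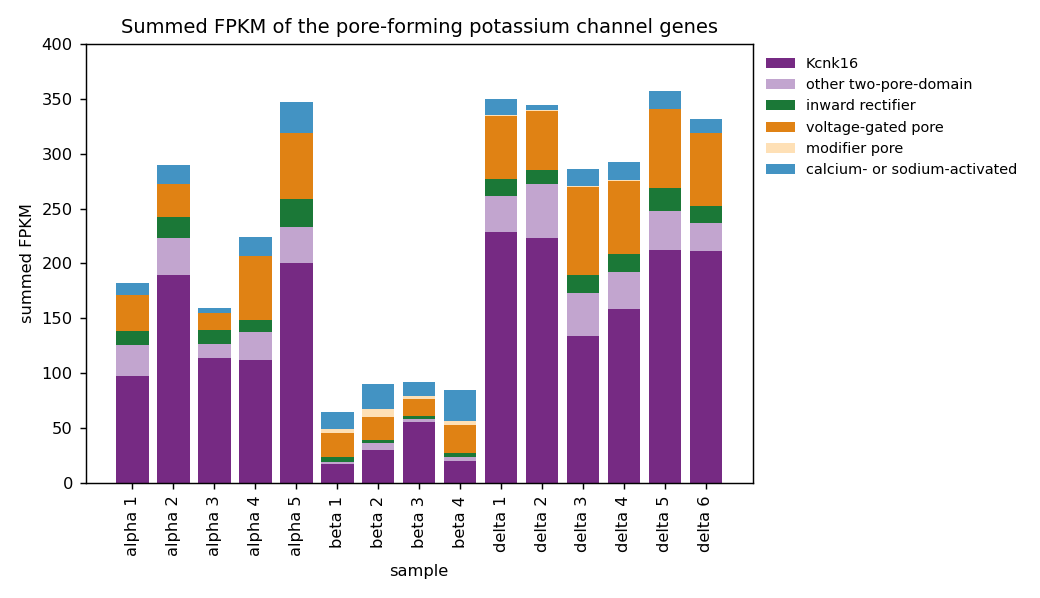
Summed FPKM of all pore-forming members in each of the 15 samples, stacked by role with Kcnk16 apart. Kcnk16 fills 23.7 to 60.3% of the bar in beta samples, whose bars end at 64.7 to 92.4 FPKM, and the delta bars end at 286 to 358 FPKM.

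Kcnk3, an acid-sensitive background channel, had the smallest adjusted p of the members in both comparisons with beta cells. Alpha samples 1 to 5 were at 14.65, 10.2, 8.06, 13.25 and 13.0 FPKM, and delta samples at 7.83 to 12.4 with a median of 10.02. Beta samples 1 to 4 were at 0.127, 0.170, 0.0858 and 0.0516 FPKM. No beta sample came near the others, and alpha and delta cells overlapped. Its log2 difference was -3.51 (SE 0.26, adjusted p = 4.81e-07, limma) for beta against alpha and 3.30 (SE 0.25, adjusted p = 2.81e-07) for delta against beta cells, at means of 11.8 ± 2.66, 0.109 ± 0.0512 and 10.02 ± 1.84 FPKM (SD).

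Kcnk1 encodes a weakly rectifying leak channel. Its alpha samples 1 to 5 were at 11.3, 21.7, 3.58, 11.6 and 16.6 FPKM, the beta samples at 1.53, 5.50, 2.42 and 2.91, and the delta samples at 13.5 to 30.05 with a median of 21.5. Delta samples were all above beta samples (log2 difference 2.52, SE 0.42, adjusted p = 0.000686, limma). Alpha sample 3 fell below beta sample 2, so those groups overlapped, and the difference of -1.68 (SE 0.43, adjusted p = 0.0276) for beta against alpha lost its call in 6 of the 15 fits that left out a sample, with the highest adjusted p of 0.0930 without beta sample 1, and in the fit of the 2 types alone (0.131). Kcnk12, a subunit related to the halothane-inhibited channel Kcnk13, was at 0.951, 1.24, 0.288, 1.10 and 2.68 FPKM in alpha samples. It was at 0.154, 0.338, 0.0903 and 0.0772 FPKM in beta samples, and the delta samples ran from 1.53 through 2.40 to 3.19. Delta against beta was called (1.51, SE 0.29, adjusted p = 0.00213), and those groups were far apart. In beta against alpha cells Kcnk12 was called lower in 3 other settings (0.0189 to 0.0486). Kcnk13 was at 0 to 0.699 in alpha, 0 to 0.102 in beta and 0.346 to 3.96 FPKM with a median of 0.726 in delta samples, and delta against beta was called with a pseudocount of 0.1 (0.0226) and with the set of samples as a covariate (0.04103).

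The gap between beta cells and both other types in Kcnk16, Kcnk3 and Kcnk1 ran with Ppy, the polypeptide cell marker given above, which was also low in beta samples and high in alpha and delta samples. The part of Ppy-expressing cells in these differences was not tested, and the same holds for Kcnk12 and for Kcnj3, Kcnj6, Kcnj2, Kcna5 and Kcnn2 below.

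Of 14 inward rectifier members, 6 were above 1 FPKM, and each was called in at least 1 comparison, a count for which the share of all genes was not computed. In beta against alpha cells 1 was called higher (2.84% of all genes tested) and 2 lower (4.82%). In delta against alpha cells 2 were called higher (5.33%) and 1 lower (1.48%), and in delta against beta cells 5 higher (11.7%) and 1 lower (2.99%). None of the 6 was above 1 FPKM in every cell type.

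Kcnj3 and Kcnj6 encode subunits of the channel that G protein βγ subunits open. Kcnj3 was at 8.67, 14.4, 7.12, 5.29 and 14.4 FPKM in alpha samples and was listed at 0 in beta samples 1 to 3 and at 0.107 in beta sample 4. Delta samples lay between, from 2.05 through a median of 3.33 to 4.56 FPKM. No 2 groups overlapped, and all 3 comparisons were called. The log2 difference was -3.33 (SE 0.32, adjusted p = 5.48e-06, limma) for beta against alpha, -1.29 (SE 0.29, adjusted p = 0.0105) for delta against alpha and 2.04 (SE 0.31, adjusted p = 0.000316) for delta against beta cells. The call of delta against alpha was lost in the 9 samples with low ribosomal protein FPKM (adjusted p = 0.165), where the means were 9.83 in alpha and 3.25 FPKM in delta cells. An antisense transcript, Gm26794, shares 31.1% of the exon bases of Kcnj3 and had means of at most 0.0776 FPKM.

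Kcnj6 showed a like order of beta against the rest. Alpha samples were at 2.63, 4.27, 2.89, 3.98 and 10.2 FPKM, beta samples at 0.472, 0.532, 0.848 and 0.9997, and delta samples at 1.5 to 5.79 with a median of 4.05. Every beta sample was below every other sample. The log2 difference was -1.64 (SE 0.39, adjusted p = 0.0173, limma) for beta against alpha and 1.43 (SE 0.37, adjusted p = 0.0168) for delta against beta cells, and without beta sample 1 these adjusted p were 0.0547 and 0.0531. The first of these calls was also lost in the fit of the 2 types alone, and the second with median-ratio size factors and with quantile normalization (adjusted p at most 0.0843).

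The classical strong inward rectifiers Kcnj2, Kcnj4 and Kcnj12 had different patterns across the cell types. Kcnj12 was at 2.05, 1.33, 1.57 and 1.55 FPKM in beta samples, listed at 0 in all alpha samples, and listed at 0 in delta samples except 0.0131 in delta sample 6. Every beta sample of Kcnj12 lay above every alpha and delta sample. It passed 1 FPKM in beta cells alone, so it was tested because it was high there, and its p-values only describe the gap. The log2 difference was 1.38 (SE 0.23, adjusted p = 0.00128, limma) for beta against alpha and -1.38 (SE 0.22, adjusted p = 0.000566) for delta against beta cells. Kcnj4 was the reverse, with 0.842 to 2.85 FPKM and a median of 1.60 in delta samples. It was listed at 0 in alpha samples but for 0.0697 in alpha sample 2, and in beta samples but for 0.00790 in beta sample 1. Both comparisons with delta cells were called (1.35, SE 0.24, adjusted p = 0.00158 against alpha and 1.37, SE 0.25, adjusted p = 0.00170 against beta).

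Kcnj2 was shared by alpha and delta cells. It was at 0.533, 0.922, 2.78, 0.671 and 0.754 FPKM in alpha samples, with the third of these well above the others. Beta samples 1 to 3 were listed at 0 and beta sample 4 was at 0.0106, while delta samples ran from 1.26 through 2.90 to 3.98 FPKM. Delta against beta was called (1.80, SE 0.31, adjusted p = 0.000945, limma), and beta against alpha was not although the groups did not overlap (-1.002, adjusted p = 0.0719). It was called with a pseudocount of 0.1 (0.000755), with size factors (0.0319) and with quantile normalization (0.0372).

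Kcnj13 encodes a weakly rectifying channel of epithelia. It was at 1.26, 0, 0, 0.686 and 0.392 FPKM in alpha samples, at 1.13, 0.339, 0.431 and 1.02 in beta samples, and at 1.98 to 6.82 with a median of 4.503 in delta samples. Delta samples were above all others, with a log2 difference of 1.90 (SE 0.31, adjusted p = 0.000678, limma) against alpha and 1.62 (SE 0.33, adjusted p = 0.00306) against beta cells. The gene lies inside Gigyf2 on the opposite strand, which shares 49.1% of its exon bases. Gigyf2 had mean levels of 42.1 in alpha, 65.0 in beta and 33.0 FPKM in delta cells, and the part of its reads in the level of Kcnj13 was not tested. Whether counting used the strand is not given in the sources used here, so the level of Kcnj13 is uncertain. Among other called members given here, smaller shares of the exon bases lie under opposite-strand transcripts in Kcnk1 (8.01%, Gm45875), Kcnk3 (5.76%, Gm9899, listed at 0) and Kcnab3 (5.13%, Kcnab3os). The same holds for Kcnj6 (4.98%, Gm41505), Kcnn2 (4.325%, AC121957.1, and 3.80%, A330093E20Rik) and Kcnh7 below. The question of the strand applies to these as well.

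**Figure D3:**
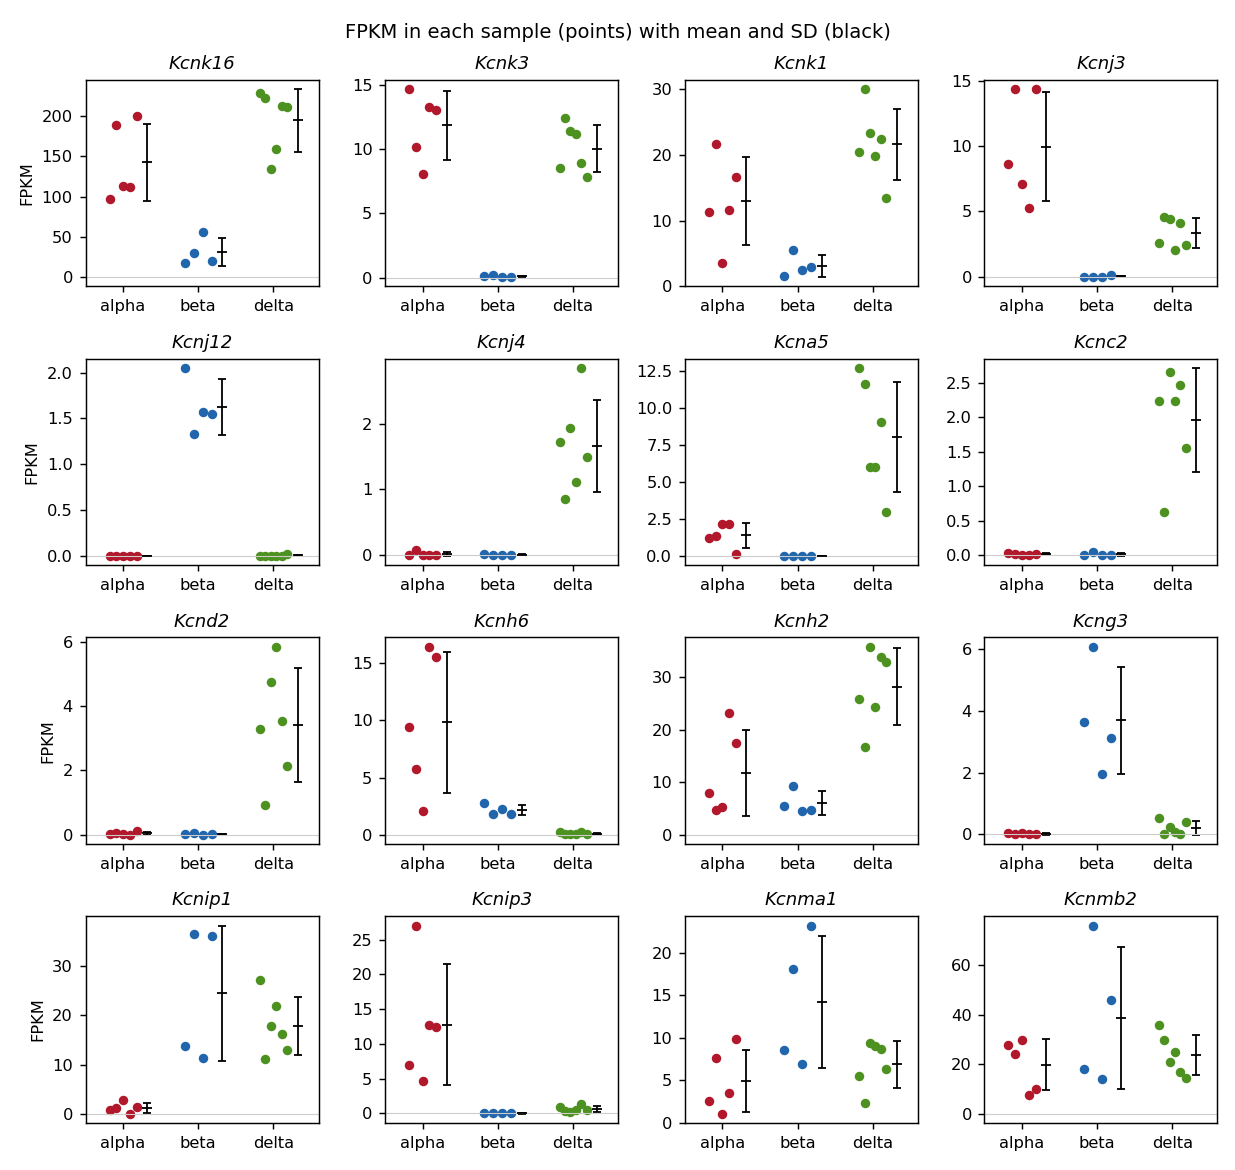
FPKM of 16 members in each sample (points), with the mean and SD in black, on linear axes that start at 0 and differ between panels. Kcnk3 and Kcnj3 lie near 0 in beta cells, Kcnj12 and Kcng3 are high in beta cells alone, and Kcnj4, Kcnc2 and Kcnd2 in delta cells alone.

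Voltage-gated pores were the largest role, with 31 members and 17 above 1 FPKM. Delta cells had the highest mean for 12 of the 17, and the share of all genes highest in delta cells was not computed. In delta against alpha cells 6 were called higher and 1 lower, beside 5.33% and 1.48% of all genes tested. In delta against beta cells 7 were called higher and 2 lower, beside 11.7% and 2.99%. Of all calls in these 2 comparisons, 78.3% and 79.6% were higher in delta cells. Between beta and alpha cells 1 was called, and it was lower in beta cells, as were 4.82% of all genes.

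A first group of these was close to 0 outside delta cells. Kcnd2, an A-type pore that opens at low voltage and inactivates fast, was at 0.913 to 5.84 FPKM in delta samples with a median of 3.41. Its alpha samples were at 0.0218, 0.0544, 0.0264, 0.00312 and 0.111 and its beta samples at 0.0152, 0.0386, 0 and 0.00711 FPKM. The lowest delta sample was above every other sample. Its log2 difference was 1.97 (SE 0.30, adjusted p = 0.000394, limma) against alpha and 2.01 (SE 0.32, adjusted p = 0.000488) against beta cells. Kcnc2, a pore of fast high-threshold channels, was at 0.630 to 2.65 FPKM with a median of 2.23 in delta samples. Alpha samples were at 0.0386, 0.0241, 0, 0 and 0.0124 and beta samples at 0, 0.0396, 0.00236 and 0 FPKM. Delta samples again stood apart from both (1.495, SE 0.25, adjusted p = 0.000952 against alpha and 1.502, SE 0.27, adjusted p = 0.00113 against beta). The summed acinar markers also had their highest median in delta cells (38.8 FPKM, against 14.6 in alpha and 2.46 in beta cells), as did the endothelial sum. The duct sum did not, since Krt19, listed at 0 in every delta sample, ran the other way from Sox9, Muc1 and Cftr. The part of acinar, duct or endothelial RNA in the delta cell levels of Kcnd2, Kcnc2, Kcnj4, Kcnh7 and the other members high in delta cells was not tested.

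Kcna5, a delayed rectifier, was graded across the types. Delta samples were at 2.96 to 12.7 FPKM with a median of 7.51, alpha samples at 1.18, 1.31, 2.12, 2.13 and 0.131, and beta samples at 0.0149, 0, 0 and 0.00654. No 2 groups overlapped. Its log2 difference was 1.90 (SE 0.35, adjusted p = 0.00207, limma) for delta against alpha and 3.05 (SE 0.37, adjusted p = 3.89e-05) for delta against beta cells, while beta against alpha was not called (-1.15, adjusted p = 0.0812) except with a pseudocount of 0.1 (0.00209), size factors (0.0393) or quantile normalization (0.0383). Delta against alpha was not called in the 9 samples with low ribosomal protein FPKM (adjusted p = 0.0746), where the means were 5.99 in delta and 1.13 FPKM in alpha cells. Within the 6 other samples they were 12.15 and 1.54 FPKM.

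Kcnb2 encodes a slow delayed rectifier. In the row ENSMUSG00000092083 it was at 0.510, 0, 1.10, 1.39 and 2.93 FPKM in alpha, 1.46, 1.43, 0.884 and 0.956 in beta and 2.40 to 5.99 with a median of 4.73 in delta samples. Delta samples were above all beta samples, and alpha sample 5 reached into the delta range. For this row the log2 difference was 1.47 (SE 0.32, adjusted p = 0.00843, limma) against alpha and 1.34 (SE 0.34, adjusted p = 0.0149) against beta cells. Against alpha it was not called in the 9 samples with low ribosomal protein FPKM (adjusted p = 0.126), and against beta it was not called with a pseudocount of 0.1, size factors, quantile normalization or the replicate block (adjusted p at most 0.0837). The other row, ENSMUSG00000090498, has no entry in GENCODE M21 and was at 0 to 0.772 in alpha, 0.1345 to 2.23 in beta and 0.1135 to 4.485 FPKM in delta samples, with no call, and how reads were divided between the rows is not known.

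The ether-a-go-go related genes Kcnh2, Kcnh6 and Kcnh7 encode channels that reopen as the membrane repolarises. Kcnh6 fell from alpha through beta to delta cells. Alpha samples were at 9.37, 5.72, 2.09, 16.4 and 15.5 FPKM, beta samples at 2.77, 1.89, 2.25 and 1.84, and delta samples at 0.0603 to 0.252 with a median of 0.0856. Delta cells lay below both other types, while alpha sample 3 fell among the beta samples. The log2 difference was -3.00 (SE 0.37, adjusted p = 5.84e-05, limma) for delta against alpha and -1.48 (SE 0.40, adjusted p = 0.0188; 0.0590 without beta sample 1) for delta against beta cells. For beta against alpha it was -1.52 (SE 0.41, adjusted p = 0.0337), a call lost without any one of 6 samples (at most 0.0961, without beta sample 4) and in 6 other settings.

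Kcnh2 had another order, with the highest mean in delta cells. Delta samples were at 16.7 to 35.8 FPKM with a median of 29.3, beta samples at 5.53, 9.31, 4.42 and 4.67, and alpha samples at 7.96, 4.72, 5.29, 23.2 and 17.45. Alpha samples 4 and 5 lay within the delta range and samples 1 to 3 within the beta range. Delta against beta was called (2.07, SE 0.42, adjusted p = 0.00353, limma). Delta against alpha had a log2 difference of 1.40 (SE 0.40, adjusted p = 0.0442), which lost its call without any one of 10 samples, with adjusted p up to 0.126 without alpha sample 3. It was also lost with no filter, size factors, quantile normalization, the replicate block and the 2 types alone. Those alpha samples belong to different ribosomal sets, and within the sets the alpha and delta means were 5.99 and 21.25 FPKM where ribosomal protein FPKM was high and 20.35 and 31.7 where it was low (adjusted p = 0.396 in the latter). In the low set Kcnh2 was called lower in beta against alpha cells (-1.85, adjusted p = 0.0108).

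Kcnh7 had a lower mean than Kcnh2 in every cell type. It was at 0.241, 0.340, 0.230, 0.0979 and 0.190 FPKM in alpha, 0.251, 0.405, 0.126 and 0.868 in beta and 0.630 to 2.74 with a median of 1.55 in delta samples. All delta samples were above all alpha samples (1.00, SE 0.26, adjusted p = 0.0247, limma), and that call was lost without any one of 5 samples (at most 0.0566, without alpha sample 4), in the 9 samples with low ribosomal protein FPKM (0.112) and with quantile normalization (0.226). Delta against beta had a log2 difference of 0.81 (adjusted p = 0.0589), not called in the fit of all 15 samples but called in 4 other settings (0.0270 to 0.0463). The gene shares 4.57% of its exon bases with Gca on the opposite strand. Kcnh8, of the related elk branch, was at 0.830, 0.191, 0.907, 0.280 and 0.768 FPKM in alpha and 0.231, 0.595, 0.0199 and 0.116 in beta samples. Delta samples were at 0.906 to 3.85 with a median of 1.22 FPKM and lay above beta samples (1.00, SE 0.31, adjusted p = 0.0384). Without any one of 6 samples the call of Kcnh8 was lost (at most 0.101, without beta sample 4), as it was with quantile normalization (0.232) and the replicate block (0.0565).

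Kcna2, a delayed rectifier, had its highest mean in beta cells, where samples were at 0.304, 1.39, 0.810 and 2.63 FPKM. Alpha samples were at 0, 0.206, 0.0373, 0.108 and 0.156, and delta samples at 0 to 0.466 with a median of 0.0586. All beta samples were above all alpha samples, with a log2 difference of 0.95 (SE 0.30, adjusted p = 0.0685, limma) that was called in 5 other settings (0.0182 to 0.0478). Delta sample 5 reached above beta sample 1, and the log2 difference of delta against beta was -0.95 (SE 0.29, adjusted p = 0.0394), lost without any one of 6 samples (at most 0.0716, without delta sample 1) and in the 9 samples with low ribosomal protein FPKM (0.152).

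Some voltage-gated members above the threshold were called in no comparison in the fit of all 15 samples. Kcna4 was listed at 0 in every beta sample and ran from 0 to 0.760 in alpha and from 0.0924 to 3.04 FPKM in delta samples. Kcnc4 was at 0.769, 0.491, 0.379, 2.497 and 4.91 FPKM in alpha samples, at most 0.102 in beta and 0.114 to 0.739 in delta samples. Means in alpha, beta and delta cells were, for Kcnd1, 2.41, 0.703 and 2.84 FPKM, and for Kcnh1 0.729, 2.06 and 0.850. In beta samples Kcnc4 was below every alpha and delta sample, and Kcnd1 was below every delta sample. Other settings called Kcnc4 lower in beta against alpha cells (4 settings, adjusted p = 0.00843 to 0.0321, limma) and in delta against alpha cells (2 settings, 0.0176 and 0.0269). In delta against beta cells they called Kcna4 higher (2 settings, 0.0249 and 0.0341), Kcnd1 higher (3 settings, 0.0275 to 0.0474) and Kcnh1 lower (3 settings, 0.0107 to 0.0389), and in beta against alpha cells Kcnh1 higher (0.0358 with size factors).

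Of 10 modifier members, Kcng3 alone passed 1 FPKM. It encodes a silent subunit that assembles with Kcnb pores. Beta samples were at 3.64, 6.07, 1.95 and 3.12 FPKM, alpha samples at 0.0293, 0, 0.0606, 0 and 0, and delta samples at 0 to 0.528 with a median of 0.157. Beta cells lay above both other types. Its log2 difference was 2.13 (SE 0.28, adjusted p = 0.000146, limma) for beta against alpha and -1.90 (SE 0.27, adjusted p = 0.000197) for delta against beta cells. Kcnf1, another modifier, was just under the threshold at a mean of 0.928 FPKM in beta cells, listed at 0 in alpha cells and at 0.0263 in delta cells. Also just outside were Kcnh5 (0.935 in beta cells) and Kcnd3 (0.716 in alpha cells), and just inside were Kcnmb4 (1.06 in delta cells), Kcnmb1 (1.27 in beta cells) and Kcna2 (1.28 in beta cells).

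Auxiliary members numbered 16, with 8 above 1 FPKM. Beta cells had the highest mean for 6 of the 8, and the share of all genes highest in beta cells was not computed. For Kcnip2, 1 of the 6, beta sample 2 was at 4.95 FPKM, and the median was 0.695 in beta and 1.06 in delta cells. In number, 2 were called higher and 1 lower in beta against alpha cells, 1 higher and 1 lower in delta against alpha cells, and none in delta against beta cells. Kcnip1 to Kcnip4 encode calcium-binding proteins that join Kcnd pores.

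Kcnip1 was at 0.877, 1.24, 2.85, 0.181 and 1.46 FPKM in alpha samples and at 13.9, 36.5, 11.4 and 36.0 in beta samples. Delta samples ran from 11.2 through a median of 16.9 to 27.1 FPKM. Alpha cells were thus low, and beta and delta cells overlapped. The log2 difference was 3.38 (SE 0.43, adjusted p = 9.31e-05, limma) for beta against alpha and 3.07 (SE 0.39, adjusted p = 7.16e-05) for delta against alpha cells. Kcnip3, which also binds DNA as a repressor, had the opposite pattern. Alpha samples were at 6.99, 27.0, 4.71, 12.7 and 12.4 FPKM, beta samples at 0.0162, 0.0946, 0.00704 and 0.0176, and delta samples at 0.275 to 1.38 with a median of 0.493. No 2 groups overlapped. Beta against alpha had a log2 difference of -3.52 (SE 0.39, adjusted p = 1.84e-05) and delta against alpha -2.89 (SE 0.35, adjusted p = 4.35e-05), while delta against beta was not called (0.64, adjusted p = 0.282) except with a pseudocount of 0.1 (0.00808) or in the fit of the 2 types alone (0.0346). The pericyte and stellate sum also had its highest median in alpha cells (2.995 FPKM, against 0.642 in beta and 0.569 in delta cells), as did the immune and Schwann cell sums. The part of RNA from such cells in the alpha cell levels of Kcnip3 and Kcnh6 was not tested.

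Kcnip2 and Kcnip4 were not called in the fit of all 15 samples. Kcnip2 was listed at 0 in 4 alpha samples and at 0.0120 in alpha sample 4, at 0.866, 4.95, 0.523 and 0.401 in beta and at 0.484 to 2.68 FPKM with a median of 1.06 in delta samples, and neither group overlapped alpha cells. Beta sample 2 stood far above the other beta samples. Kcnip2 was called higher in beta against alpha cells with a pseudocount of 0.1 (adjusted p = 0.00427), with size factors (0.0165), with quantile normalization (0.0178) and with the set covariate (0.0266), and in delta against alpha cells in 4 settings (0.0013 to 0.0344). Kcnip4 was at 3.64, 14.03, 2.62, 1.92 and 2.905 FPKM in alpha, 2.62, 11.5, 3.24 and 14.5 in beta and 2.500 to 10.2 with a median of 4.435 in delta samples, and the types overlapped. Kcnab3, a cytoplasmic beta subunit of Kcna pores, was at 0.448, 1.12, 0.278, 0.0990 and 0.257 FPKM in alpha, 1.74, 1.24, 2.36 and 3.29 in beta and 0.405 to 1.57 with a median of 1.06 in delta samples. Beta samples were all above alpha samples (1.13, SE 0.30, adjusted p = 0.0300, limma), and that call was lost without any one of 6 samples (at most 0.109, without beta sample 4), with the replicate block and in the fit of the 2 types alone. In delta against beta cells Kcnab3 was called lower with quantile normalization (0.0123).

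Kcnma1 encodes the large-conductance calcium- and voltage-activated pore, and Kcnmb1, Kcnmb2 and Kcnmb4 its beta subunits. Kcnmb2 was the highest auxiliary member in every cell type by mean. It was at 27.6, 24.0, 29.7, 7.65 and 10.01 FPKM in alpha, 18.2, 76.0, 13.9 and 45.9 in beta and 14.2 to 35.65 with a median of 22.8 in delta samples. The types overlapped and none differed by the test. Alpha samples 4 and 5 were the lowest, and within the sets of ribosomal protein FPKM the alpha mean was 27.1 where it was high and 8.83 FPKM where it was low. With the set of samples as a covariate, Kcnmb2 was called higher in beta against alpha cells (1.24, adjusted p = 0.0408, limma), and without it the log2 difference was 0.80. Kcnma1 was at 1.08 to 9.86 FPKM in alpha, 6.94 to 23.2 in beta and 2.31 to 9.34 in delta samples, with means of 4.91, 14.2 and 6.85. Its log2 difference of 1.46 for beta against alpha cells was not called (adjusted p = 0.0965, limma), but it was with median-ratio size factors (0.0182) and with quantile normalization (0.0229). With size factors Kcnma1 was also called lower in delta against beta cells (-1.26, adjusted p = 0.0495). Kcnmb1 had medians of 0.0664, 1.38 and 1.06 FPKM and Kcnmb4 0, 0.184 and 0.885 in alpha, beta and delta samples, with no call in the fit of all 15 samples. Kcnmb1 was called higher in beta against alpha cells in 4 other settings (adjusted p = 0.0277 to 0.0493, limma) and in delta against alpha cells in 2 (0.0148 and 0.0282). The exons of Kcnmb4 share 20.8% and 10.7% of their bases with the opposite-strand Kcnmb4os2 and Kcnmb4os1, which were listed at 0 in alpha and beta cells and had means of 0.324 and 0.693 FPKM in delta cells, so its level is uncertain in the same way as that of Kcnj13.

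Of 8 calcium- or sodium-activated pore members, 4 were above 1 FPKM, and 1 was called, in 1 comparison. It was lower in beta against alpha cells, as were 4.82% of all genes tested. Kcnn2, a small-conductance channel opened by calcium through calmodulin, was at 0.831, 4.20, 1.80, 0.983 and 3.84 FPKM in alpha, 0.177, 0.0900, 0.239 and 0.487 in beta and 0.561 to 3.54 with a median of 1.32 in delta samples. Beta samples were below all others. The log2 difference for beta against alpha was -1.29 (SE 0.38, adjusted p = 0.0465, limma), and the call was lost without any one of 11 samples (at most 0.114, without alpha sample 2) and in 6 other settings, among them the 9 samples with low ribosomal protein FPKM and the replicate block (at most 0.117, with the block). In delta against beta cells Kcnn2 was called higher with a pseudocount of 0.1 (0.0166) and in the fit of the 2 types alone (0.0284). The related Kcnn3 had means of 6.21 ± 5.63, 3.45 ± 1.81 and 2.96 ± 1.76 FPKM (SD) in alpha, beta and delta cells. Its alpha samples 4 and 5 were at 10.99 and 13.4 FPKM and samples 1 to 3 at 0.629 to 3.22, and these are the same 2 sets by ribosomal protein FPKM. In the 9 samples with low ribosomal protein FPKM, Kcnn3 was called lower in beta against alpha (-1.37, adjusted p = 0.0413, limma) and in delta against alpha cells (-1.44, adjusted p = 0.0456). Kcnu1, an alkali-activated relative of Kcnma1 known from sperm, had means of 2.03, 1.63 and 1.68 FPKM. Neither was called in the fit of all samples.

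**Figure D4:**
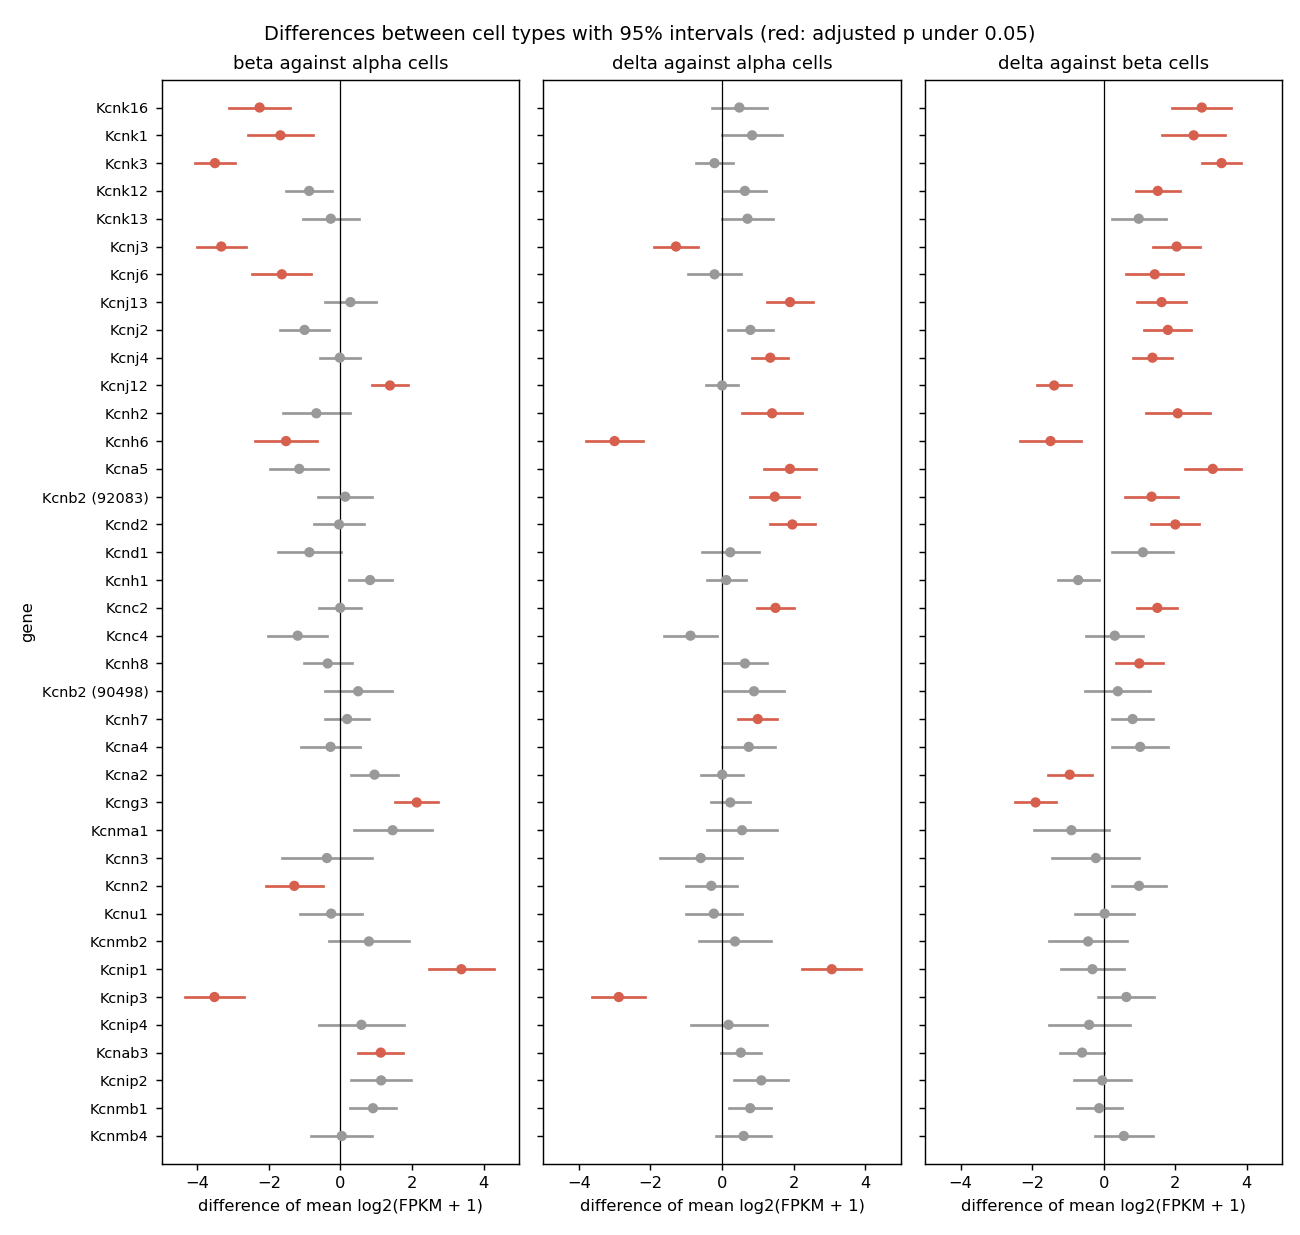
Differences of mean log2(FPKM + 1) between cell types for 38 members (points) with 95% intervals (lines), red where the adjusted p of limma was under 0.05. Red points number 12, 12 and 19 in the 3 panels, beside calls for 7.66%, 6.81% and 14.7% of all genes tested. The two-pore-domain genes in the top rows lie to the left in beta against alpha and to the right in delta against beta cells.

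The 52 members at or below the threshold were left out of the fit of all 15 samples. Lower thresholds brought calls for some of them. Kcnf1 was called higher in beta against alpha cells (adjusted p = 0.0182 with a threshold of 0.5 FPKM and 0.00323 with none, limma) and lower in delta against beta cells (0.00991 and 0.00171). With no threshold Kcnh5 had the same directions (0.0402 and 0.0376), and Kcnn1 and Kcnh3 were called higher in delta cells against alpha (0.000928 and 0.0449) and against beta cells (0.01755 and 0.0228). Kcnd3 passed the threshold in the 9 samples with low ribosomal protein FPKM and was called lower there in beta against alpha (0.0208) and in delta against alpha cells (0.0399). Listed at 0 in every sample were 22, namely Kcna7, Kcna10, Kcne1, Kcne3, Kcne4, Kcng2, Kcng4, Kcnj1, Kcnj8, Kcnj14, Kcnk4, Kcnk7, Kcnk9, Kcnk15, Kcnk18, Kcnmb3, Kcnq3, Kcns1, Kcns2, Kcnt2, Kcnv1 and Kcnv2. The other 30 had a value above 0 in some sample and means of at most 0.935 FPKM. Among them were Kcna1, Kcna3, Kcna6, Kcnab1, Kcnab2, Kcnc1, Kcnd3, Kcne1l, Kcne2, Kcnf1, Kcng1, Kcnh3, Kcnh4, Kcnh5, Kcnj5, Kcnj9, Kcnj10, Kcnj15, Kcnj16, Kcnk2, Kcnk5, Kcnk6, Kcnk10, Kcnn1, Kcnn4, Kcnq1, Kcnq5, Kcns3 and Kcnt1. A value of 0 is given as listed, since the depth of most samples is unknown.

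A list of 18 further genes of potassium channel complexes and related channels was also examined, of which 10 were above the threshold. In beta against alpha cells none was called higher and Dpp10 lower. In delta against alpha cells Dpp6 and Hcn4 were called higher and Dpp10 lower, and in delta against beta cells Kcnj11, Amigo1, Dpp6 and Hcn3 were called higher and none lower. The shares of all genes called in each direction are those given above for the members. Dpp6 and Dpp10 encode partners of Kcnd pores. Dpp6 was at 11.2 to 48.9 FPKM in the delta samples, with means of 3.33 in alpha, 0.249 in beta and 37.4 in delta cells, and Dpp10 had means of 20.7, 2.39 and 4.27 FPKM. Kcnj11 had means of 14.5 ± 9.20, 10.2 ± 2.06 and 28.2 ± 5.26 FPKM (SD) in alpha, beta and delta cells. Its regulatory partner Abcc8, the sulfonylurea receptor, had means of 38.3, 35.5 and 95.6 FPKM and was not called. Hcn3 and Hcn4 carry the hyperpolarisation-activated cation current, and Hcn3 had its highest mean in delta cells (2.74 FPKM).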

How the data were processed

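Amplified RNA (NuGEN) of 15 samples of sorted cells was read from 1 end for 50 nt. TopHat (2.0.11 in the methods, 2.0.8 in the submitters' processing notes) was used for alignment to GRCm38. The authors deposited gene-level FPKM made by Cufflinks 2.2.1. The annotation release, strand setting and any scaling between libraries are not given in the sources used here. Count tables were not used here, so the study's edgeR test was not run. Groups and replicate numbers came from the labels. FPKM were analysed as log2(FPKM + 1) with limma 3.58.1 (R 4.3.3; lmFit, eBayes with trend), without covariates, for 14405 genes with a mean above 1 FPKM in at least 1 cell type; a call was an adjusted p under 0.05. The fit was tested on simulated data. Named in full were members called in any comparison and the 3 highest members of each cell type; Kcnma1 and members just outside the threshold were added after their values were seen. The members, roles and lists were chosen with earlier results of these data known. Coding sequences and gene models were from GENCODE M21 (GRCm38), in which 92 of the 93 rows have an entry. Alternatives were other filters, pseudocount, scaling, covariates, thresholds, fits of 2 cell types and leaving out each sample. The split at 50000 summed ribosomal protein FPKM followed earlier results, and the fit of the 9 lower samples was added after the data were seen. Steps were done in Python 3.11.15 with pandas 2.3.3 and matplotlib 3.10.9. Values of some members, and some sequences, are not reported here; counts over the members include them.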

Additional observations from a re-analysis of the deposited data

Results flagged for a closer look

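In 77 groups of samples over 26 members with full values, 11 held a sample far from the others by Dixon's criterion at the 95% level. In 5 of these every other sample of the group was listed at 0, so that any value above 0 meets the criterion, and the rate of about 1 group in 20 that chance gives does not apply to them: Kcnj12 at 0.0131 FPKM in delta sample 6, Kcnj2 at 0.0106 and Kcnj3 at 0.107 in beta sample 4, Kcnj4 at 0.0697 in alpha sample 2 and Kcnj4 at 0.00790 in beta sample 1. Beta sample 2 stood above the other beta samples for Kcnc2 (0.0396 FPKM) and Kcnip3 (0.0946). Alpha sample 3 was above the other alpha samples for Kcnj2 (2.78 against at most 0.922 FPKM). Among delta samples, Kcna2 was high in sample 5 (0.466 FPKM) and Kcnh8 in sample 2 (3.85), and Kcnb2 (ENSMUSG00000092083) was low in sample 1 (2.40 against at least 4.62 FPKM).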

How the results depend on the processing

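Of 44 calls of a member in a comparison, 28 were kept under all alternatives that gave a value and 32 in all 15 fits that left out a sample; no difference changed sign. In beta against alpha cells the 4 members called higher became 7 with a pseudocount of 0.1, 7 with no filter, 2 with a filter on the mean of the cell type means, 9 with median-ratio size factors and 8 with quantile normalization. The 8 called lower became 4 with only those 2 types in the fit, 4 at an adjusted p under 0.01, and 4 to 10 when a sample was left out (4 without beta sample 1, 5 without beta sample 3 and 5 without beta sample 4). They became 11 with a pseudocount of 0.1 or with quantile normalization, and 12 in the 9 samples with low ribosomal protein FPKM. In delta against alpha cells, the 9 higher and 3 lower became 5 and 5 in the 9 samples with low ribosomal protein FPKM. In delta against beta cells the 4 lower became 2 with the filter on the mean of means and 2 at an adjusted p under 0.01, and 6 with no filter, size factors or quantile normalization. The 16 higher became 13 with size factors and 12 with quantile normalization, but 20 with a pseudocount of 0.1 or with only those 2 types in the fit. They became 18 with no filter or with the set of samples as a covariate. The cause of these changes was not tested. In 25 further pairs of a tested member and a comparison, over 19 members, a call was made in an alternative other than leaving out a sample but not in the fit of all samples. The filter on the mean of means left 9 of the 44 calls with no value, and leaving out beta sample 4 left 1. Size factors moved the median over all genes by 0.13, -0.12 and -0.28 in the 3 comparisons and quantile normalization by 0.11, -0.17 and -0.30. Calls over all genes numbered 1104, 981 and 2114 in the main test and 2072, 1064 and 2676 with size factors. They numbered 1970, 1088 and 2745 with quantile normalization and 1457, 1056 and 2292 with a pseudocount of 0.1. With no filter there were 969, 1121 and 2160, and with the filter on the mean of means 998, 772 and 1813. Of all calls, 37, 78.3 and 79.6% were higher in the main test, 52.7, 67.9 and 51.5% with size factors, and 47.6, 56.8 and 50.9% with quantile normalization. Depth is unknown in 9 samples, so no floor could be given for members listed at 0.

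Same-numbered samples of different cell types correlated at -0.152 to 0.281 in their deviations from the group means (5 of 13 pairs over 0.1), and 7 of 26 comparisons had the own number as the best, so the numbers were not taken as pairs. Delta samples came from another mouse line and cannot share mice with the others. Alpha and beta samples came from the same line, and whether they shared pools of mice is not given. Their pairs numbered 1 to 4 correlated at -0.0395, 0.271, -0.152 and 0.0731, and sorts numbered differently would not be found this way. With the replicate number as a block, 3 members were called higher and 6 lower in beta against alpha, 8 and 3 in delta against alpha, and 14 and 4 in delta against beta cells.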
